A study of Homo sapiens with 6 samples.

Results

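Interferon-stimulated effector genes encode the proteins that cells make after an interferon signal, among them the ISG15 modifier and its enzymes, the MX and GBP GTPases, the IFITM membrane proteins and the antiviral TRIM proteins. The 48 genes described here were listed by symbol. The IFIT and OAS families, nucleic acid sensors, STAT and IRF factors and MHC genes were left out of the list. All 48 symbols were found, in 48 of the 24108 rows of the deposited expression table, because GBP1 and GBP2 shared a row and HERC6 had 2. A row was tested where its mean was at least 1 FPKM, a fragment count divided by transcript length and by the number of mapped fragments. This held for 44 of these 48 rows and for 11777 rows in all.

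The cells were MDA-MB-231, an established triple-negative breast cancer line labelled basal. Lentiviral short hairpins were delivered for 48 h, and cells carrying them were selected for 24 h in 0.5 µg/ml puromycin. The 3 shCtr samples carried the LKO hairpin against luciferase and the 3 shZNF148 samples a hairpin against ZNF148, a zinc finger transcription factor. Both groups were therefore transduced and puromycin-selected. The sample titles do not distinguish separate hairpins against ZNF148, so a response to a hairpin and a response to ZNF148 loss cannot be told apart.

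In the canonical pathway, type I interferon binds its receptor, receptor-bound kinases activate transcription factors, and a complex that includes STAT2 and IRF9 binds the interferon-stimulated response element (ISRE) in target promoters. Interferon gamma acts largely through another DNA element, the gamma-activated site (GAS). Cancer cells often express part of this program without an infection.

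Promoter sequences show what the members share in DNA. RefSeq windows on GRCh38.p14, from 250 bases before to 50 bases after a listed start, were found for 41 of the 48 genes, and not for USP18, PARP10, MX2, TRIM22, PML, GBP2 and IFITM2. The letters GAAANNGAA, an ISRE core with N for any base, were searched on both strands and occurred for 33 of these 41 genes (80.5%), compared with 9.86% of all 27305 symbols with a window. The GAS letters TTCNNNGAA, which read the same on both strands, occurred for 11 of 41 genes (26.8%, against 9.38% of all symbols). GGGAGGGG, a G-rich run searched on both strands because ZNF148 binds runs of G or C, occurred for 1 of 41 genes, PLSCR1 (2.44%, against 16.7%). Matches of ISRE and GAS letters may overlap and were counted separately. A match is a description of these letters and does not show that a factor binds there.

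The following stretches, read 5′ to 3′ on the strand of the gene with ISRE letters in capitals, are shown because they carry the same core while the fold changes of their genes spanned the range of the set. IFI44 and SAMD9 rose in shZNF148. ISG15 (log2 fold change 0.81), IFITM1 (-1.19), IFITM3 and IFI27 did not pass the test described below, and the sign of the last 2 flips under quantile normalization.
ISG15 (chr1:1013380-1013409, plus strand): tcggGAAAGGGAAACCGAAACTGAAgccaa
IFI44 (chr1:78649759-78649788, plus strand): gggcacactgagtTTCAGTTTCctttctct
SAMD9 (chr7:93118096-93118125, minus strand): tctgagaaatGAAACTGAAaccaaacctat
IFITM1 (chr11:313990-314019, plus strand): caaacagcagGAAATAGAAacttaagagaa
IFITM3 (chr11:320885-320914, minus strand): agGAAAAGGAAactgttgaGAAACCGAAac
IFI27 (chr14:94110625-94110654, plus strand): cagtTTCGGTTTCctgGAAAATGAAaccta
The ISG15 stretch held 3 overlapping matches and the IFITM3 and IFI27 stretches held 2 each, while the IFI44, SAMD9 and IFITM1 stretches held 1 each.

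The targeted gene was checked first. In order of replicate number, ZNF148 stood at 3.72, 4.36 and 4.30 FPKM with shCtr and at 0.914, 0.282 and 0.834 FPKM with shZNF148, and the same order is kept for all values given by sample. All shZNF148 values were below all shCtr values, and the mean fell to 16.4% of the control mean (log2 fold change -1.63, adjusted p = 0.00990 from limma, and 0.0603 without shCtr replicate 1 and 0.0568 without shCtr replicate 3). VIM and CD44, which mark this line, were lower in shZNF148 without overlap, VIM at 1708 to 1842 FPKM in shCtr and 1507 to 1528 FPKM in shZNF148, and CD44 at 576 to 606 FPKM and 402 to 467 FPKM. Of the receptor genes that define the subtype, ESR1 was listed at 0 in all 6 samples and PGR reached at most 0.0830 FPKM. ERBB2, in a row joined with MIR4728, was at 126 and 125 FPKM in replicate 2 of shCtr and shZNF148 and at 20.1 to 24.8 FPKM in the other 4 samples, so replicate 2 of both groups stood apart in this row. SPARC, chosen as a marker of the line, was low at 0.178 to 1.49 FPKM. Of 8 immune cell markers only CD68 had a mean of at least 1 FPKM (110 to 128 FPKM in shCtr and 72.8 to 86.1 FPKM in shZNF148), and CLEC4C and NCAM1 were listed at 0 in every sample, while PTPRC reached at most 0.115 FPKM. The summed level of the 7 immune markers other than CD68 was 0.519 to 1.01 FPKM in shCtr and 0.772 to 2.04 FPKM in shZNF148, most of it from CD14. Of 4 fibroblast markers 2 had a mean of at least 1 FPKM. The sum of all 4 was 10.7 to 18.2 FPKM in shCtr and 15.5 to 19.1 FPKM in shZNF148, and they did not all move in the same direction.

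To ask how this program stood after ZNF148 silencing, the members were compared between the groups on log2(FPKM + 1). Of the 44 tested rows, 36 were higher in shZNF148 (81.8%, against 50.9% of all tested rows), with a median log2 fold change of 0.35 beside 0.0061 over all tested rows. At an adjusted p under 0.05 from limma, 13 rows rose and 1 fell. Those that rose were HERC6 (1 of its 2 rows), UBE2L6, GBP3, IFI44, IFI35, SAMD9, SAMD9L, TDRD7, RTP4, TRIM21, SP110, TRIM14 and LAP3. The row that fell was IFITM2. The 13 rows made up 29.5% of the members, where 5.46% of all tested rows rose and 8.13% fell. Of these, 9 rose by more than 1.5-fold, the study's threshold, where 1.83% of all tested rows did, and IFITM2 fell by more than 1.5-fold, as did 3.66% of all tested rows. Without regard to the test, 13 rows were more than 1.5-fold higher on this scale (3.39% of all tested rows), and ISG15, HERC5, IFI6 and DDX60 were the 4 of them that did not pass. In all, 30 rows did not pass, of which 23 had a positive log2 fold change. In 27 rows all 3 shZNF148 values lay above all shCtr values (20.0% of all tested rows), and in 2, IFITM1 and IFITM2, they lay below (21.0%). RTP4, EPSTI1 and TRIM22 had control means under 1 FPKM and were tested only because of their shZNF148 level. Leaving out these 3, 12 of 41 rows rose, 8 of them by more than 1.5-fold, and 24 did not overlap and were higher. In these bulk samples a change in RNA per cell and a change in the share of expressing cells cannot be told apart.

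**Figure D1:**
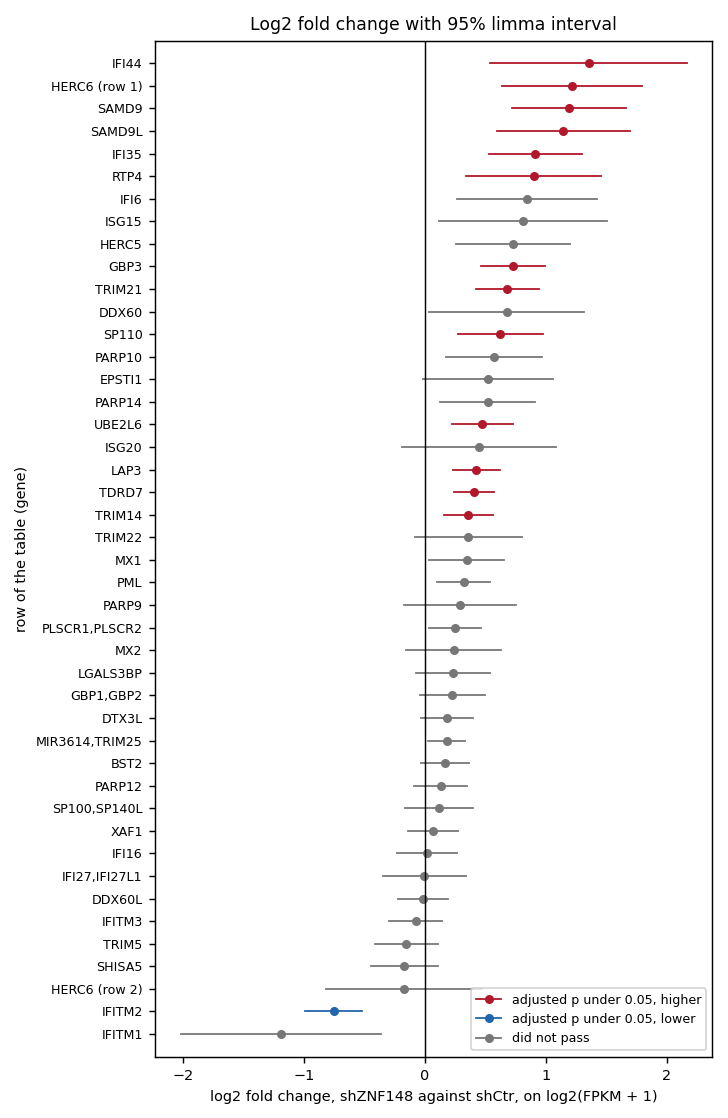
Log2 fold change of each of the 44 tested rows (x axis, shZNF148 against shCtr on log2(FPKM + 1)) with its 95% limma interval, sorted by size, in red or blue where the adjusted p was under 0.05. IFI44 is at the top at 1.36, 13 rows are red, and IFITM2 at -0.75 is the 1 blue row. IFITM3 and IFI27 lie near 0 and their sign flips under quantile normalization.

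The count of calls depended on the control libraries. No member rose in limma's test without shCtr replicate 1, 2 or 3, where 20, 20 and 17 members were higher at an unadjusted p under 0.05, compared with 23 in all 6 samples. Such a p was found for 11.2%, 13.97% and 11.6% of all tested rows when those libraries were left out and for 16.0% in all 6 samples. At the adjusted p, 0.0255%, 0.791% and 0.0595% of all tested rows rose without shCtr replicates 1, 2 and 3. When a knockdown library was left out, 5 members rose without shZNF148 replicate 1, 13 without replicate 2 (11 of them among the 13 above) and 11 without replicate 3, where 0.884%, 5.36% and 3.59% of all tested rows rose. With the replicate number added to the fit as a block, 3 members rose, where 1.10% of all tested rows rose.

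The size of the change was largest in shZNF148 replicate 2. The median difference of the members from the shCtr mean was 0.28, 0.51 and 0.19 on the log2(FPKM + 1) scale in shZNF148 replicates 1, 2 and 3, and 0.00 to 0.01 over all tested rows. Replicate 2 held the highest of the 6 values in 36 of 44 members, compared with 27.6% of all tested rows. It was also the sample with the lowest ZNF148 value and the shZNF148 sample with the high ERBB2 row, and the part of either in this order was not tested. Without shZNF148 replicate 2 the members' median fell to 0.22, with 32 of 42 tested rows above 0.

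**Figure D2:**
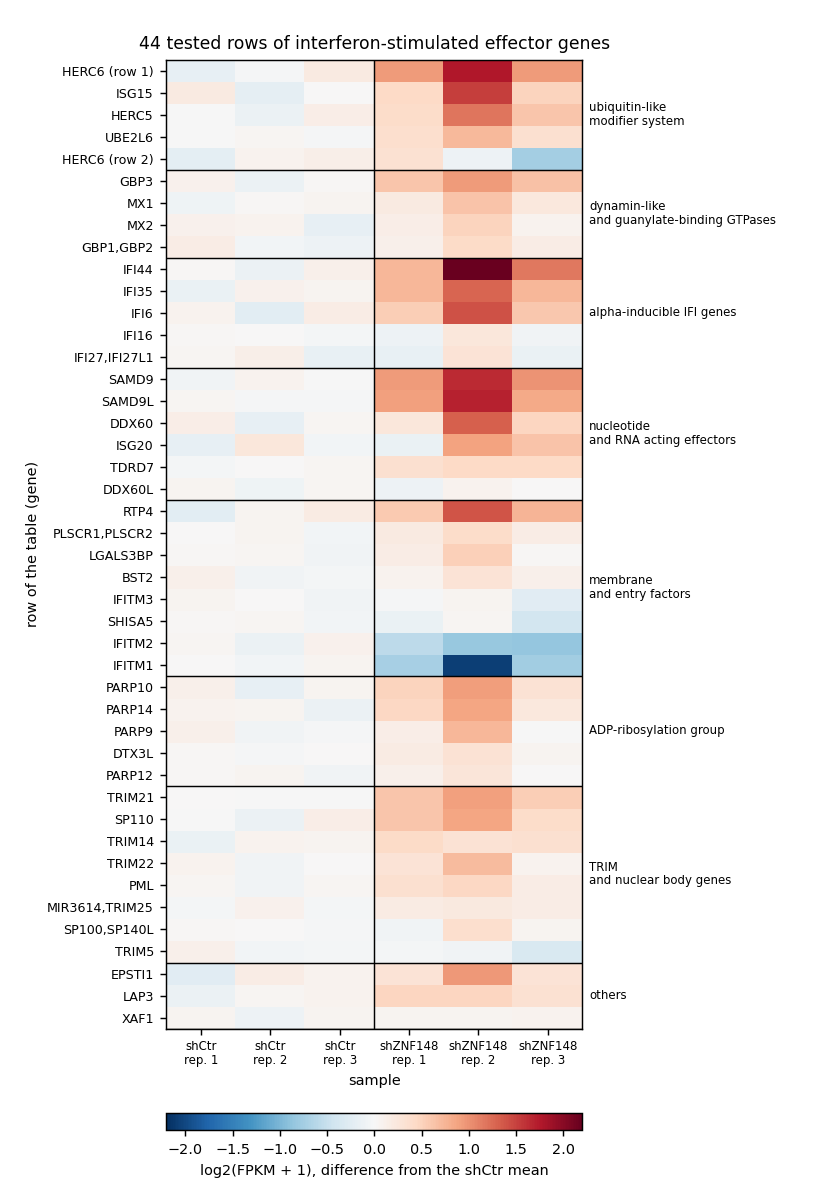
Difference of log2(FPKM + 1) from the shCtr mean (color) in each of the 6 samples (columns) for the 44 tested rows (grouped by role). The shZNF148 columns are red for most rows and deepest in replicate 2, while IFITM1 and IFITM2 are blue in all 3 shZNF148 samples.

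The first group handles ISG15, a ubiquitin-like protein that interferon induces and that is attached to other proteins. Of its 5 tested rows, 1 row of HERC6 and UBE2L6 rose and 3 rows did not pass. HERC6, a HECT-domain ligase, was at 1.72, 2.01 and 2.53 FPKM in shCtr and at 4.87, 9.46 and 4.90 FPKM in shZNF148. The groups of this row did not overlap, and its log2 fold change was 1.22 (standard error, SE, 0.24, adjusted p = 0.0286). The other HERC6 row was at 2.21, 2.93 and 3.04 FPKM in shCtr and at 3.70, 2.42 and 1.22 FPKM in shZNF148. Its groups overlapped (log2 fold change -0.17, adjusted p = 0.685), and with both rows added together the log2 fold change was 0.73 and the adjusted p 0.0681. UBE2L6, the E2 enzyme that conjugates ISG15, was at 35.7, 37.2 and 35.2 FPKM in shCtr and at 46.9, 59.5 and 46.3 FPKM in shZNF148, without overlap. It rose by a log2 fold change of 0.48 (SE 0.10, adjusted p = 0.0349). Both enzymes lost the call without shCtr replicate 1, 2 or 3 or shZNF148 replicate 1 (adjusted p between 0.0534 and 0.121).

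ISG15 itself was the most abundant of the group, at 68.2, 51.7 and 59.97 FPKM in shCtr and 80.8, 173 and 84.0 FPKM in shZNF148. All 3 shZNF148 values exceeded all shCtr values, but replicate 2 stood far above the other pair and the test did not pass (log2 fold change 0.81, SE 0.29, adjusted p = 0.105). HERC5, the main ligase for ISG15 in human cells, was at 10.2, 9.23 and 11.4 FPKM in shCtr and 13.9, 24.4 and 16.1 FPKM in shZNF148. Its groups did not overlap and its adjusted p of 0.0548 (log2 fold change 0.73) was just above the threshold. USP18, the protease that removes ISG15 and dampens receptor signaling, was below the filter.

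Among the dynamin-like and guanylate-binding GTPases, which attack viral and vacuolar particles, 1 of 4 tested rows rose. GBP3 was at 18.4, 15.7 and 17.5 FPKM in shCtr and at 26.6, 33.8 and 27.4 FPKM in shZNF148. Its groups did not overlap, and the log2 fold change was 0.73 (SE 0.11, adjusted p = 0.0172). Without shCtr replicate 1, 2 or 3 the adjusted p of GBP3 was 0.0710, 0.0546 and 0.0702. The row that joins GBP1 and GBP2, and does not separate them, was at 32.2 ± 3.44 FPKM in the controls and 38.0 ± 4.79 FPKM after knockdown (SD, n = 3 each) and did not pass (adjusted p = 0.204 from limma). MX1 and MX2 had log2 fold changes of 0.35 and 0.24, with adjusted p-values of 0.118 and 0.344. The 95% interval was 0.03 to 0.66 for MX1 and -0.15 to 0.63 for MX2, and both ended below the GBP3 estimate of 0.73. The GBP3 interval of 0.47 to 0.99 overlapped both, and the difference between genes was not tested. MX2 averaged only 1.20 FPKM, a level at which adding 1 FPKM before the logarithm understates changes. Adding 0.1 FPKM instead moved the estimates to 0.41 for MX2, 0.38 for MX1 and 0.76 for GBP3.

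Of 5 tested IFI rows, IFI44 and IFI35 rose and 3 did not pass. IFI44, a cytosolic interferon-induced protein, was at 10.9, 9.67 and 11.6 FPKM in shCtr and at 18.4, 51.9 and 25.1 FPKM in shZNF148. Every shZNF148 value was above the controls and replicate 2 far above the other pair, with a log2 fold change of 1.36 (SE 0.34, adjusted p = 0.0463). IFI35, which forms a complex with NMI, was at 11.5, 13.8 and 13.5 FPKM in shCtr and at 22.1, 32.7 and 22.1 FPKM in shZNF148. IFI35 showed no overlap and rose by a log2 fold change of 0.91 (SE 0.16, adjusted p = 0.0223). Without shCtr replicate 1, 2 or 3 neither passed (adjusted p between 0.0620 and 0.139). IFI44 did not pass either without shZNF148 replicate 3 (0.0733), without the variance trend (0.0545), with a pseudocount of 5 FPKM (0.0549) or without the filter (0.0707).

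IFI6, a membrane protein that limits cell death and viral replication, was at 17.0, 13.4 and 17.9 FPKM in shCtr and at 23.6, 43.98 and 24.6 FPKM in shZNF148. IFI6 did not overlap between groups either, with a log2 fold change of 0.85 and an adjusted p of 0.0630. IFI16, a nuclear DNA sensor, was at 43.3 ± 0.964 FPKM in the controls and 44.2 ± 6.36 FPKM after knockdown (SD, n = 3 each). For IFI16 the log2 fold change was 0.019 with a 95% interval of -0.23 to 0.26. The row that joins IFI27 and IFI27L1 was at 148 ± 15.6 FPKM in the controls and 149 ± 28.7 FPKM after knockdown (SD, n = 3 each). Here the log2 fold change was -0.0033 (95% interval -0.35 to 0.34) and 0.070 under quantile normalization. For IFI16 and this row the intervals leave out an increase as large as the log2 fold changes of IFI35 and IFI44, although the difference between genes was not tested.

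**Figure D3:**
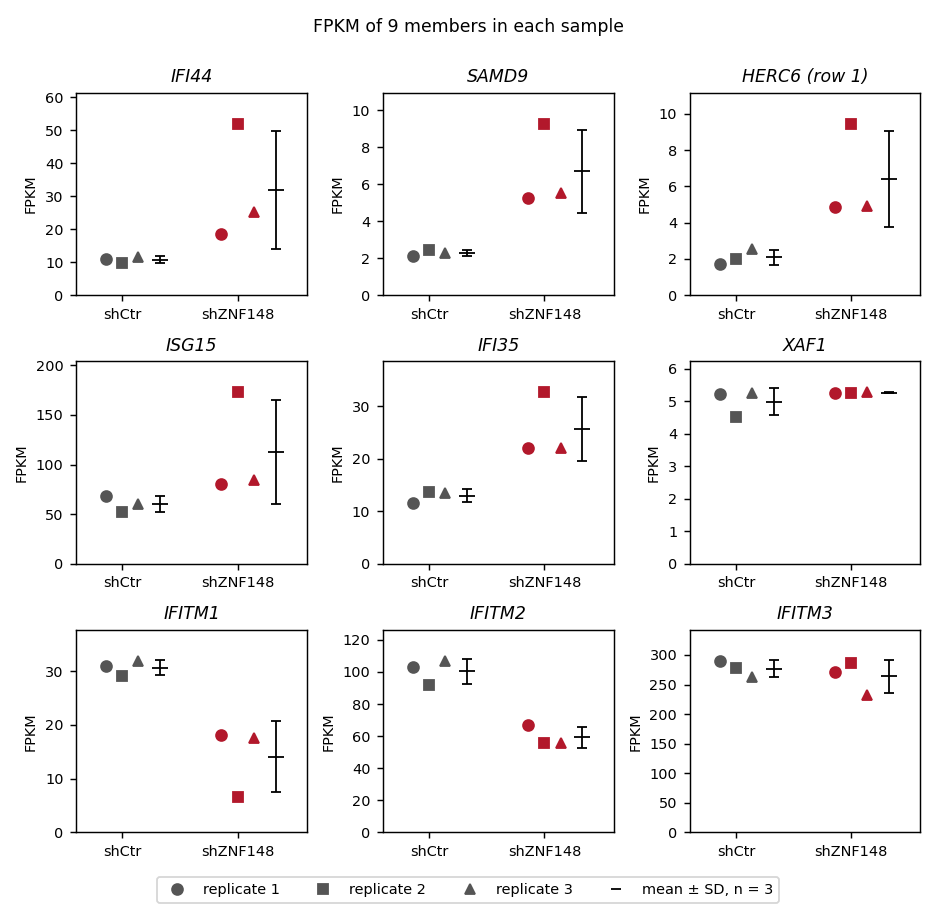
FPKM (y axis, from 0) of 9 members in each sample, with replicates 1, 2 and 3 as circle, square and triangle and the mean ± SD (n = 3) beside them. IFI44, SAMD9, the first HERC6 row, ISG15 and IFI35 are highest in shZNF148 replicate 2, IFITM1 is lowest there at 6.52 FPKM, and XAF1 and IFITM3 stay near the control level, IFITM3 with a sign that flips under quantile normalization.

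Of 6 tested effectors that act on nucleotides or RNA, 3 rose. SAMD9 and SAMD9L, sister restriction factors that block translation in infected cells, both rose. SAMD9 was at 2.12, 2.45 and 2.26 FPKM in shCtr and at 5.27, 9.27 and 5.50 FPKM in shZNF148. SAMD9L was at 1.63, 1.53 and 1.52 FPKM in shCtr and at 3.81, 7.28 and 3.57 FPKM in shZNF148. Each of the 3 shZNF148 values exceeded every control in both genes, with log2 fold changes of 1.19 (adjusted p = 0.0198) and 1.15 (adjusted p = 0.0288). TDRD7, a Tudor domain protein, moved less but evenly, from 8.34, 8.70 and 8.92 FPKM to 11.3, 12.1 and 12.1 FPKM (log2 fold change 0.41, adjusted p = 0.0213). Without shCtr replicate 1, 2 or 3 none of SAMD9, SAMD9L and TDRD7 passed (adjusted p between 0.0578 and 0.101), nor did SAMD9L and TDRD7 without shZNF148 replicate 1 (0.0557 and 0.0529).

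The RNA helicase gene DDX60 was at 6.80, 5.16 and 6.21 FPKM in shCtr and at 7.39, 16.4 and 8.71 FPKM in shZNF148. DDX60 groups did not overlap but the test did not pass (log2 fold change 0.68, adjusted p = 0.131). Its neighbor DDX60L was at 8.16 ± 0.492 FPKM in the controls and 8.08 ± 0.600 FPKM after knockdown (SD, n = 3 each), with a 95% interval of -0.22 to 0.19 on the log2 scale. ISG20, a 3′ to 5′ exonuclease, overlapped between groups (6.69, 9.35 and 7.33 FPKM against 6.86, 15.1 and 12.4 FPKM, adjusted p = 0.277).

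Of 8 tested membrane and entry rows, RTP4 rose, IFITM2 fell and 6 did not pass. IFITM1, IFITM2 and IFITM3 are small membrane proteins that hinder the fusion of virus and cell membranes, and their genes lie together on chromosome 11 of GRCh38 between 303655 and 329475 (GENCODE release 44). IFITM2 was at 103, 91.7 and 107 FPKM in shCtr and at 66.9, 55.8 and 55.4 FPKM in shZNF148. The groups of IFITM2 did not overlap, and it fell by 0.75 on the log2 scale (SE 0.10, adjusted p = 0.0120). Without shCtr replicates 1 and 3 its adjusted p was 0.0710 and 0.0631. IFITM1 was at 30.9, 29.2 and 31.9 FPKM in shCtr and at 18.2, 6.52 and 17.5 FPKM in shZNF148. All 3 shZNF148 values of IFITM1 were below the controls and replicate 2, the highest sample for most other members, was the lowest here. Its log2 fold change of -1.19 (SE 0.35) had an adjusted p of 0.0653 in all samples and 0.00450 without shZNF148 replicate 2, where it was -0.75. IFITM3, the most abundant of the 3, was at 289.9, 279 and 263 FPKM in shCtr and at 272, 287 and 233 FPKM in shZNF148. The IFITM3 groups overlapped, and its log2 fold change of -0.074 had a 95% interval of -0.29 to 0.14 and turned to 0.022 under quantile normalization. The IFITM genes are similar copies, so reads that fit several of them could have been divided between them in the deposited values.

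RTP4, a Golgi chaperone for receptors, was at 0.556, 0.893 and 1.06 FPKM in shCtr and at 1.72, 3.73 and 2.07 FPKM in shZNF148. Its mean in shCtr was 0.835 FPKM, so it was tested only through its shZNF148 level. RTP4 values did not overlap, with a log2 fold change of 0.90 (SE 0.23, adjusted p = 0.0495) that grew to 1.44 with a pseudocount of 0.1 FPKM. The call of RTP4 was lost when any 1 of the 6 samples was left out (adjusted p between 0.0535 and 0.155). The row joining PLSCR1, a phospholipid scramblase, and PLSCR2 had a log2 fold change of 0.25 (adjusted p = 0.103). LGALS3BP, a secreted glycoprotein, and BST2 (tetherin, which holds budding virus at the cell surface) were abundant, at 338 and 198 FPKM on average in shCtr, and had log2 fold changes of 0.24 and 0.17 (adjusted p = 0.239 and 0.209). SHISA5, an endoplasmic reticulum protein, had a log2 fold change of -0.17 (95% interval -0.44 to 0.11).

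The ADP-ribosylation group had 5 tested rows, all with a positive log2 fold change between 0.13 and 0.57, and none passed limma's test at the adjusted p, while 2, PARP10 and PARP14, had an unadjusted p under 0.05. The mono-ADP-ribosyltransferase PARP10 was at 12.0, 9.56 and 11.4 FPKM in shCtr and at 15.8, 21.5 and 13.8 FPKM in shZNF148, and PARP14, of the same family, at 8.32, 8.20 and 7.15 FPKM and at 11.1, 15.3 and 9.46 FPKM. Neither gene overlapped between groups (adjusted p = 0.0642 and 0.0807). PARP9 and its partner ligase DTX3L had log2 fold changes of 0.29 and 0.18, and PARP12 of 0.13.

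Among 8 tested TRIM and nuclear body rows, 3 rose. TRIM21, a cytosolic antibody receptor and ubiquitin ligase, was at 7.86, 7.69 and 7.72 FPKM in shCtr and at 12.3, 15.4 and 11.7 FPKM in shZNF148. Its control values had an SD of 0.0897 FPKM, its groups did not overlap, and its log2 fold change was 0.68 (SE 0.11, adjusted p = 0.0185). SP110, a nuclear body protein, went from 2.43, 2.175 and 2.83 FPKM to 4.27, 5.31 and 3.57 FPKM (log2 fold change 0.62, adjusted p = 0.0407). TRIM14, a mitochondrial adaptor, went from 10.9, 13.0 and 12.7 FPKM to 16.7, 15.4 and 15.7 FPKM (log2 fold change 0.36, adjusted p = 0.0411). TRIM14 was 1 of the 8 members whose highest value was not in shZNF148 replicate 2. Without shCtr replicate 1, 2 or 3 none of the 3 passed (adjusted p between 0.0586 and 0.131). SP110 also lost the call without shZNF148 replicate 1 or 2 (0.0904 and 0.0560), and TRIM14 without shZNF148 replicate 1 or 3 (0.107 and 0.0754).

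PML, which organizes nuclear bodies, was at 24.0, 22.0 and 24.1 FPKM in shCtr and at 30.2, 32.3 and 26.2 FPKM in shZNF148, without overlap (log2 fold change 0.32, adjusted p = 0.0627). Its partner SP100, in a row shared with SP140L, had a log2 fold change of 0.12 (adjusted p = 0.511). TRIM25, the ligase known for acting on the RNA sensor RIG-I and here in a row shared with MIR3614, had a log2 fold change of 0.18 (adjusted p = 0.1004). TRIM22 was low in both groups, at 0.772 ± 0.0890 and 1.31 ± 0.520 FPKM (SD, n = 3 each). TRIM5, which recognizes retroviral capsids, was at 5.64 ± 0.439 FPKM in the controls and 4.997 ± 0.635 FPKM after knockdown (SD, n = 3 each), with a 95% interval of -0.41 to 0.11 on the log2 scale.

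Of the 3 other tested members, LAP3, a cytosolic leucine aminopeptidase, rose from 21.4, 24.3 and 24.7 FPKM to 32.7, 33.02 and 29.8 FPKM. Its groups did not overlap (log2 fold change 0.43, SE 0.08, adjusted p = 0.0252), and the call was lost without shCtr replicate 1, 2 or 3 or shZNF148 replicate 1 (adjusted p between 0.0658 and 0.0957). EPSTI1, with a control mean of 0.725 FPKM, was at 0.450, 0.909 and 0.817 FPKM in shCtr and at 1.12, 2.34 and 1.12 FPKM in shZNF148 (log2 fold change 0.52, adjusted p = 0.154). XAF1, an antagonist of the apoptosis inhibitor XIAP, was at 5.21, 4.52 and 5.24 FPKM in shCtr and at 5.26, 5.26 and 5.28 FPKM in shZNF148. The XAF1 groups did not overlap only by a narrow margin, and the 95% interval of its log2 fold change was -0.14 to 0.28.

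The 4 members below the filter were at or under 1 FPKM in every sample, so each value may rest on few fragments. RSAD2 (viperin, which makes a chain-terminating nucleotide) was listed at 0.0339, 0 and 0.0644 FPKM in shCtr and at 0.330, 0.970 and 0.463 FPKM in shZNF148. CMPK2, a mitochondrial nucleotide kinase whose gene overlaps RSAD2 on the opposite strand, was at 0.0576, 0 and 0 FPKM and at 0.223, 0.666 and 0.0626 FPKM. USP18 was at 0.245, 0.0562 and 0.466 FPKM in shCtr and at 0.542, 0.931 and 0.760 FPKM in shZNF148. For RSAD2, CMPK2 and USP18 all shZNF148 values exceeded all shCtr values, for CMPK2 by a narrow margin (0.0626 against 0.0576 FPKM). For IFI44L (0.0188 to 0.0988 FPKM in shCtr and 0.0982 to 0.301 FPKM in shZNF148) they overlapped. Such a separation was found in 20.0% of all tested rows, and its share among rows below the filter was not counted. When rows of every level were tested together, none of the 4 passed limma's adjusted test (adjusted p between 0.0588 and 0.224). Whether the libraries kept strand is not given in the sources used here, so reads of RSAD2 and CMPK2 in their overlap may not be separable.

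Several members lie beside each other on a chromosome, and 22 of the 48 formed 10 clusters with gaps of at most 100000 bases in GENCODE release 44. SAMD9 and SAMD9L (chromosome 7, 93099513 to 93148385) both rose, although ISRE letters occurred in the SAMD9 window and not in that of SAMD9L. HERC6 and HERC5 (chromosome 4, 88378739 to 88506163) had log2 fold changes of 1.22, for the first HERC6 row, and 0.73, and here the letters occurred for HERC5 and not for HERC6. GBP3 rose beside the joined GBP1 and GBP2 row, which did not pass, on chromosome 1 (89006679 to 89150456). DDX60 and DDX60L, at log2 fold changes of 0.68 and -0.013 and also neighbors, both held ISRE letters. Of the 13 genes with a row that rose, 8 held ISRE letters in a window, and HERC6, IFI35, SAMD9L, SP110 and UBE2L6 did not. Among all 41 members with a window, 33 held them, so the letters were not more frequent in the genes that rose. Differences between neighbors were not tested. The pairs and triplets of MX, GBP, SAMD9, IFI44 and DDX60 genes are similar copies, and PARP9 and DTX3L overlap on opposite strands, so reads could be divided or shared between them.

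**Figure D4:**
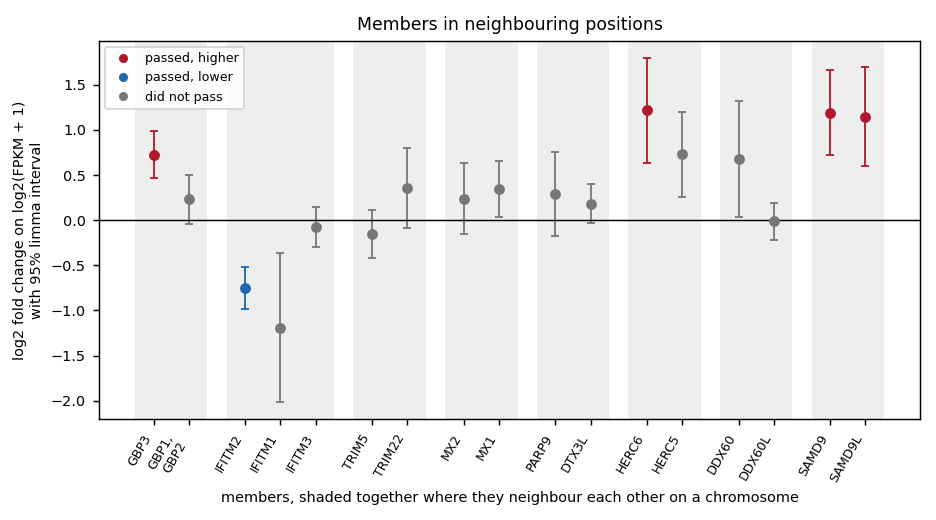
Log2 fold change on log2(FPKM + 1) with 95% limma interval (y axis) for members that neighbor each other on a chromosome, shaded by cluster and named on the x axis, with red or blue where the adjusted p was under 0.05 (for HERC6 the row with the higher mean is shown). SAMD9 and SAMD9L are both near 1.2, while IFITM2 at -0.75 and IFITM1 at -1.19 lie below IFITM3 at -0.074, whose sign flips under quantile normalization.

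The rest of the pathway, a list of sensors, receptors, STAT and IRF factors, IFIT, OAS and MHC genes, gave 38 tested rows. Of these, 34 had a positive log2 fold change (89.5%, against 50.9% of all tested rows), with a median of 0.51. The test was passed by 10, each of them higher (26.3%, against 5.46% of all tested rows). They were IFIT1, IFIT2, IFIT3, OAS1, OAS2, OAS3, TLR3, IFNAR1, MAVS and the row joining DDX58 and TOPORS. Rows and not genes were counted, and some MHC genes held several tested rows, all with a positive log2 fold change. The list had 87 rows in all, and most of those not tested were further rows of MHC and antigen-processing genes. For some of these genes every row was listed at 0 in all 6 samples, so the tested rows do not cover all of them. The receptor subunit IFNAR1 had a log2 fold change of 0.52 (adjusted p = 0.0172). The transcription factors STAT2 and IRF9 had log2 fold changes of 0.16 and 0.36 and did not pass (adjusted p = 0.473 and 0.0968). IFNB1, the interferon beta gene, was listed at 0 in all 6 samples.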

How the data were processed

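RNA-seq of 6 MDA-MB-231 samples, 3 shCtr and 3 shZNF148, was used, with groups from the sample titles. The authors deposited 1 table of FPKM values, and 0 further columns were unused. The submitters' processing notes name bcl2fastq 2.17.1.14, TopHat2 2.0.14, Cufflinks 2.2.1 and Cuffnorm 2.2.1 with builds hg18 and hg19, while the paper's methods name Salmon, DESeq2 and GRCh38. Which of these made the FPKM values, and which scaling between libraries was applied, is not given in the sources used here. Genome positions and promoter sequences therefore come from GRCh38 annotation and not from the table.

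Read numbers are unknown, so low values have unknown precision. Steps between low values gave relative depths of 0.806 to 1.13 of shCtr replicate 1. Values were fitted as log2(FPKM + 1), which understates changes of low genes, for the 11777 rows that reached 1 FPKM on average, with limma 3.58.1 in R 4.3.3 (condition only, eBayes with a mean-variance trend, Benjamini-Hochberg adjustment over all tested rows). An exact permutation test of 3 samples against 3 cannot give a p below 0.1. A value of 0 stood in at least 1 sample of 173 tested rows, where a 0 can be a failed estimate.

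Per-sample values were written for every member with an adjusted p under 0.05 and for the 6 other tested members with the largest change. They were also written for members listed at 0 in a sample. Beyond this rule they were given for the second HERC6 row, ISG20, IFITM3, PARP14, PML, EPSTI1, XAF1 and USP18. The remaining members were named by role. Alternatives changed the filter, the pseudocount, the scaling, the variance trend, the handling of rows at 0 or sharing a symbol, and the replicate block, or left out each sample in turn. Joined rows were kept whole. The members, lists, motifs and alternatives were chosen with earlier results of these data known. No source says the samples are separate cultures, so p-values measure only the spread between them. Of the steps only the limma fit was tested on simulated log2 values. Tables and figures were made in Python 3.11.15 (pandas 2.3.3, numpy 2.4.6, matplotlib 3.10.9). A few genes of the marker and pathway lists are not reported here by name and stay in the counts.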

Additional observations from a re-analysis of the deposited data

How the results depend on the processing

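The direction of the members' median held in every alternative run, between 0.22 and 0.40. The 9 members that rose by over 1.5-fold, beside 216 of all tested rows, became 5 with a mean of at least 5 FPKM, beside 156 of 8832 rows. There HERC6, RTP4, SAMD9, SAMD9L and SP110 were no longer tested and HERC5 was gained. With a pseudocount of 5 FPKM the count was 4, beside 76 of all tested rows. It was 0 to 7 when each replicate was left out, beside 3 to 222 of all tested rows. The 13 members that rose were 8 without a filter, when IFI44, RTP4, SP110, TRIM14 and UBE2L6 were lost (2.36% of all rows rose). They were 0 to 13 when each replicate was left out (0.0255% to 5.36% of all rows). The 1 that fell, beside 957 of all tested rows, became 2 with rows at 0 left out (IFITM1 in addition), beside 1125 of 11604 rows. In that setting the count of those that rose was 16 (6.84% of all rows). When each replicate was left out 0 to 2 members fell, beside 26 to 1101 of all tested rows. The member counts that fell were the same under both call rules. IFI44 also lost its call without the variance trend, and IFI44 and RTP4 with a pseudocount of 5 FPKM. The other causes were not tested.

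The replicate numbers are shared by both groups. The correlation between shCtr and shZNF148 samples of 1 number, each taken as its difference from the group mean, was 0.001, -0.088 and 0.030. Not every sample correlated best with its own number, so the numbers were not taken to pair the samples. Correlations over all rows cannot show a link limited to part of the rows, and the ERBB2 row was high in replicate 2 of both groups (126 and 125 FPKM). With the replicate number as a block, TRIM21, SAMD9 and IFI35 rose, all 3 by over 1.5-fold, and IFITM2 fell. Of all 11777 rows 1.10% rose at any fold under the block, 99 rose by over 1.5-fold and 271 fell. Of the 38 other pathway rows 5 passed under the block, all higher. Without the block 10 passed, where 5.46% of all tested rows rose.

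Signs near 0 changed. Under quantile normalization the log2 fold change was 0.070 for the row of IFI27 and 0.022 for IFITM3. With each replicate left out it ran from -0.058 to 0.038 for DDX60L, -0.43 to 0.11 for the second row of HERC6, -0.094 to 0.081 for IFI16, -0.16 to 0.074 for the row of IFI27, -0.14 to 0.013 for IFITM3 and -0.010 to 0.22 for the row of SP100. None of these passed the test in any of these settings. Depth is unknown and limits the members under 1 FPKM most.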
